A study of Bos taurus with 18 samples.

Results

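The step from ×2.5 to ×5 epigenetic modifiers (EM) in high glucose was examined here, as the difference between the 3 High ×5 and the 3 High ×2.5 libraries, 6 of the 18 libraries of the study. All 31500 cytosines with a value in these libraries were used and none was selected. EM are folate, choline, vitamin B12 and methionine, the nutrients that feed one-carbon metabolism. In this pathway, folate carries one-carbon units, vitamin B12 is a cofactor in the remethylation of homocysteine to methionine, and choline gives methyl groups after its oxidation to betaine. Methionine is then turned into S-adenosylmethionine, the methyl donor with which DNA methyltransferases write 5-methylcytosine, mostly at CpG sites. A CpG reads the same on both strands of DNA, and the maintenance enzyme DNMT1 copies the mark from the old strand to the new one after replication.

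The cells were EBTr, a single established line of bovine embryonic tracheal fibroblasts, grown in medium with serum and, for both treatments compared, 4.5 g/L glucose. High ×2.5 and High ×5 media held folate, choline and vitamin B12 at 2.5 and 5 times the Control medium. The labels give the same multiples for methionine, while the methods of the study state that methionine was held at 2 times the Control in every supplemented medium, so that methionine may not have differed between the 2 treatments. Reduced representation bisulfite sequencing (RRBS) was used, in which a restriction digest selects CpG-rich fragments and bisulfite separates methylated from unmethylated cytosines. The 4 other treatments were High Control, at the same glucose without added EM, and Low (1 g/L glucose) Control, ×2.5 and ×5, with 3 libraries each. No source says that the 3 libraries of a treatment came from separate cultures, so the p-values measure the spread between these libraries, which may be technical.

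Each value is an M-value, that is methylated over unmethylated reads on the log2 scale, both raised by an offset. The level in percent is the share that this ratio implies. No read counts were used here, the depth behind a single value is unknown, and a value from few reads lies closer to a level of 50%. Positions are those of bosTau8, and a gene named beside a cytosine is the one with the closest start site in the study's own tables, at any distance, or the gene those tables give to listed cytosines on both sides of it, so that it marks a neighbourhood and not a promoter. Exons, introns and UTRs were not assigned.

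The overall level did not separate the 2 treatments. The mean level over all cytosines was 68.7%, 67.6% and 68.6% in the High ×5 libraries and 69.7%, 68.7% and 68.1% in the High ×2.5 libraries, and the 2 ranges overlapped. The means were 68.3% ± 0.619 and 68.8% ± 0.824 (SD, n = 3 each), a difference of -0.535 percentage points (exact two-sided permutation test, p = 0.4, where 3 against 3 libraries cannot go below 0.1). This difference was -0.0949 points without High ×2.5 replicate 1, -0.177 without High ×5 replicate 2 and -0.912 without High ×2.5 replicate 3. High Control was at 69.2% ± 0.386 (SD, n = 3). The SD of the M-values also differed between libraries, from 1.63 to 1.74 in High ×5 and from 1.65 to 1.77 in High ×2.5, and the library with the lowest mean level of each treatment also had its lowest SD. Whether this spread reflects depth was not tested.

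**Figure D1:**
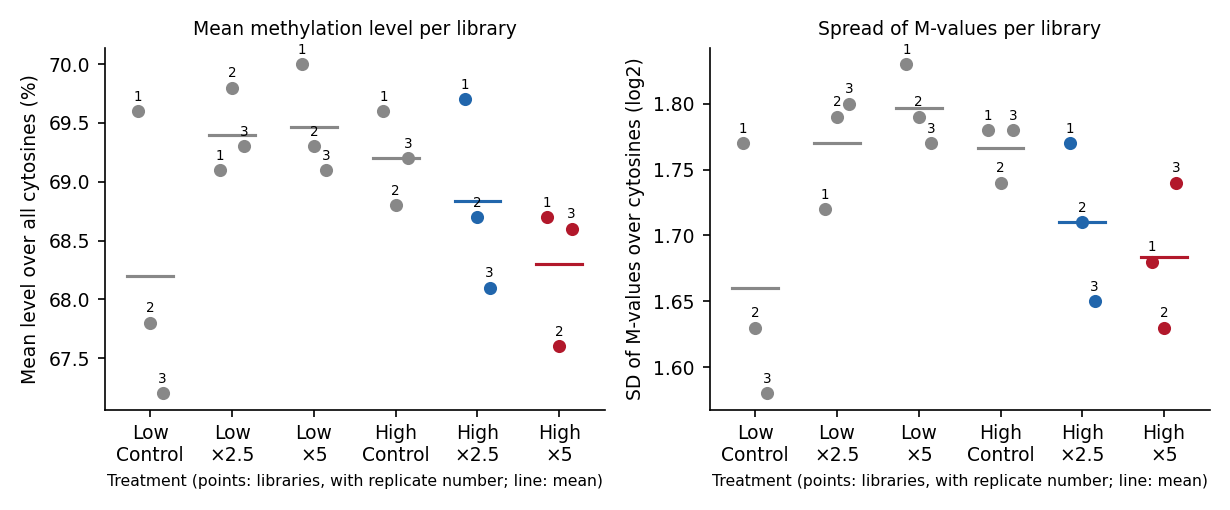
Mean methylation level over all 31500 cytosines in percent (left) and SD of the M-values on the log2 scale (right) for each of the 18 libraries, by treatment, with the replicate number beside each point and a line at the treatment mean. The y axes do not start at 0. The High ×5 libraries lie between 67.6% and 68.7% and overlap the High ×2.5 libraries, which lie between 68.1% and 69.7%.

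At single cytosines, 463 of 31500 passed an unadjusted p-value under 0.01 in limma, the threshold of the study, which is 1.47% of the cytosines tested where 1% is nominal. Of these differentially methylated cytosines (DMC), 143 (0.454% of all cytosines) were higher at ×5 and are called methylated, and 320 (1.02%) were lower and are called demethylated. None passed a Benjamini-Hochberg adjusted p-value under 0.05 in limma, in which the smallest was 0.546, and 2004 cytosines (6.36%) had an unadjusted p-value under 0.05. The called cytosines therefore form a ranking, and no single one of them stands apart from the 31500 tested. With the 6 libraries of the contrast fitted alone, 255 cytosines were called, which is under 1% of those tested. Whether the count exceeds the nominal share thus depends on which libraries estimate the spread. The median methylated cytosine gained 12.5 percentage points (0.99 on the log2 scale) and the median demethylated cytosine lost -11.7 points (-1.02). In 306 of the 463 the difference was at least 10 points and in 19 at least 20 points. The median SE of a difference was 0.33 on the log2 scale.

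Methylated calls made up 30.9% of all calls (95% Wilson interval 26.8% to 35.2%, which treats cytosines as independent and covers counting error only). This split followed a small shift of all cytosines, whose median difference was -0.05 on the log2 scale. With each library centred on its own median, 217 cytosines were methylated and 258 demethylated, and methylated calls made up 45.7%. With libraries scaled to the same SD and median the counts were 232 and 296 (43.9%), and after quantile normalization 243 and 275 (46.9%). Of the 463 calls, 387, 413 and 402 were also called in the same direction under these 3 scalings, and all 463 had the same sign. Without High ×2.5 replicate 3, which had the lowest level and SD of its treatment, the methylated share was 19.7%, and without High ×5 replicate 2, the lowest of its own, it was 46.2%. The count itself lay between 383 and 622 when 1 library was left out. The values of all High ×5 libraries lay above all High ×2.5 libraries at 1079 cytosines (3.43%) and below them at 1964 (6.23%), in all 3043 cytosines (9.66%). Where treatments do not differ, full separation of 3 against 3 libraries in either direction has an exact probability of 0.1. Among the 463 called cytosines, 413 were separated in this way, which follows largely from their choice by p-values of the same libraries.

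Among the methylated cytosines, the smallest p-value belonged to SFRP1, which encodes a secreted antagonist of Wnt ligands, at chr27:35853033. There the High ×5 libraries had levels of 72.2%, 75.0% and 73.5% and the High ×2.5 libraries 52.6%, 52.6% and 40.0%. The 2 treatments did not overlap, and the difference was 25.2 points (1.57 ± 0.29 SE on the log2 scale, adjusted p = 0.546 in limma). High Control was at 70.3% ± 9.44 (SD), near ×5. GALNT17, a member of the family that starts O-linked glycosylation with N-acetylgalactosamine, held the next cytosine at chr25:30307826, at 75.0%, 70.6% and 76.7% in High ×5 against 60.5%, 37.5% and 47.1% in High ×2.5. FERMT1, which encodes the integrin activator kindlin-1, followed at chr13:48996507, with 79.3%, 81.3% and 83.3% in High ×5 and 59.5%, 62.5% and 52.9% in High ×2.5. In all 3 of these cytosines the lowest High ×5 library lay above the highest High ×2.5 library, which their choice by p-value favours. Of the other cytosines within 100 bp, 2 of 5 were also higher at ×5 at SFRP1 (median -0.23 on the log2 scale). At GALNT17 4 of 7 were higher (median 0.03) and at FERMT1 4 of 4 (median 0.68).

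The other methylated cytosines of this ranking had smaller steps. At ITGB8, which encodes an integrin beta subunit that activates latent TGF-beta, the level at chr4:28959908 was 85.2%, 83.3% and 80.0% in High ×5 and 68.4%, 70.3% and 72.4% in High ×2.5. At SEMA3D, a secreted semaphorin that guides migrating cells and axons, the level at chr4:35258636 rose from 56.8% ± 6.25 to 78.4% ± 5.82 (SD). At ADAMTS3, a protease that trims procollagen, the level at chr6:89202911 rose from 29.5% ± 3.34 to 45.3% ± 3.88. PPP2R2A, a regulatory subunit of protein phosphatase 2A, gained 16.6 points at chr8:74624288. A second GALNT17 cytosine, at chr25:30337639, gained 17.6 points. GFRA3, the artemin receptor, gained 10.9 points at chr7:51293432, and PTPRU, a receptor-type tyrosine phosphatase, gained 6.71 points at chr2:124776576 from an already high 87.3%. Cytosines within 100 bp often went the other way. Those also higher at ×5 were 3 of 7 at PPP2R2A, 5 of 16 at the second GALNT17 cytosine, 4 of 12 at GFRA3 and 0 of 3 at PTPRU. They were 2 of 3 at ITGB8, 8 of 15 at SEMA3D and 5 of 9 at ADAMTS3.

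Among the demethylated cytosines, the smallest p-value belonged to PIK3R4, the regulatory subunit of the class III phosphatidylinositol kinase that acts in autophagy. At chr1:153217888 the High ×5 libraries had 51.8%, 66.7% and 66.7% and the High ×2.5 libraries 77.9%, 80.2% and 80.0%, a difference of -17.7 points (-1.24 ± 0.23 SE on the log2 scale, adjusted p = 0.546 in limma). High ×5 replicate 1 was well below the other libraries of its treatment. PLOD3, a lysyl hydroxylase and glycosyltransferase of collagen, followed at chr25:36109362 with 88.0%, 88.3% and 91.0% against 95.3%, 95.5% and 94.5%. Here the step was only -6.0 points, but the libraries of High ×2.5 lay within a narrow range. TLE4, a Groucho-type corepressor of Wnt target genes, held 2 cytosines 3 bp apart. At chr8:56727529 the level fell from 88.3% ± 3.52 to 73.4% ± 6.7, and at chr8:56727532 from 92.3% ± 0.252 to 80.2% ± 6.25 (SD). SFRP1 appeared here too, with a cytosine at chr27:35839147 that had 77.3%, 62.5% and 80.9% in High ×5 against 93.2%, 92.1% and 85.7% in High ×2.5. SFRP1 and GALNT17 were thus named in both directions, since another GALNT17 cytosine, at chr25:30290923, lost -22.7 points.

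Others were at COMTD1, ZNF395 and SPZ1. ZNF395, a zinc finger protein, had the largest loss of all called cytosines in percentage points, though not on the log2 scale, from 71.1%, 58.6% and 59.3% in High ×2.5 to 33.3%, 47.1% and 36.8% in High ×5 at chr8:10193493. COMTD1, a protein with a catechol methyltransferase domain, lost -9.27 points at chr28:31995723. SPZ1, a transcription factor of spermatogenesis, lost -17.6 points at chr20:143729. Cytosines within 100 bp that were also lower at ×5 were 8 of 10 at PIK3R4, 24 of 42 at PLOD3 and 12 of 21 at SFRP1. They were 13 of 20 and 14 of 22 at TLE4, 4 of 10 at GALNT17, 8 of 15 at COMTD1, 4 of 10 at ZNF395 and 6 of 8 at SPZ1. These counts were not tested. All 10 methylated and 9 demethylated cytosines given here were called under each of 13 alternatives, and none changed direction. Their choice by small p-values favours this, since the alternatives use the same libraries. The adjusted p-values of these cytosines in limma were between 0.546 and 0.591 in the fit as reported.

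**Figure D2:**
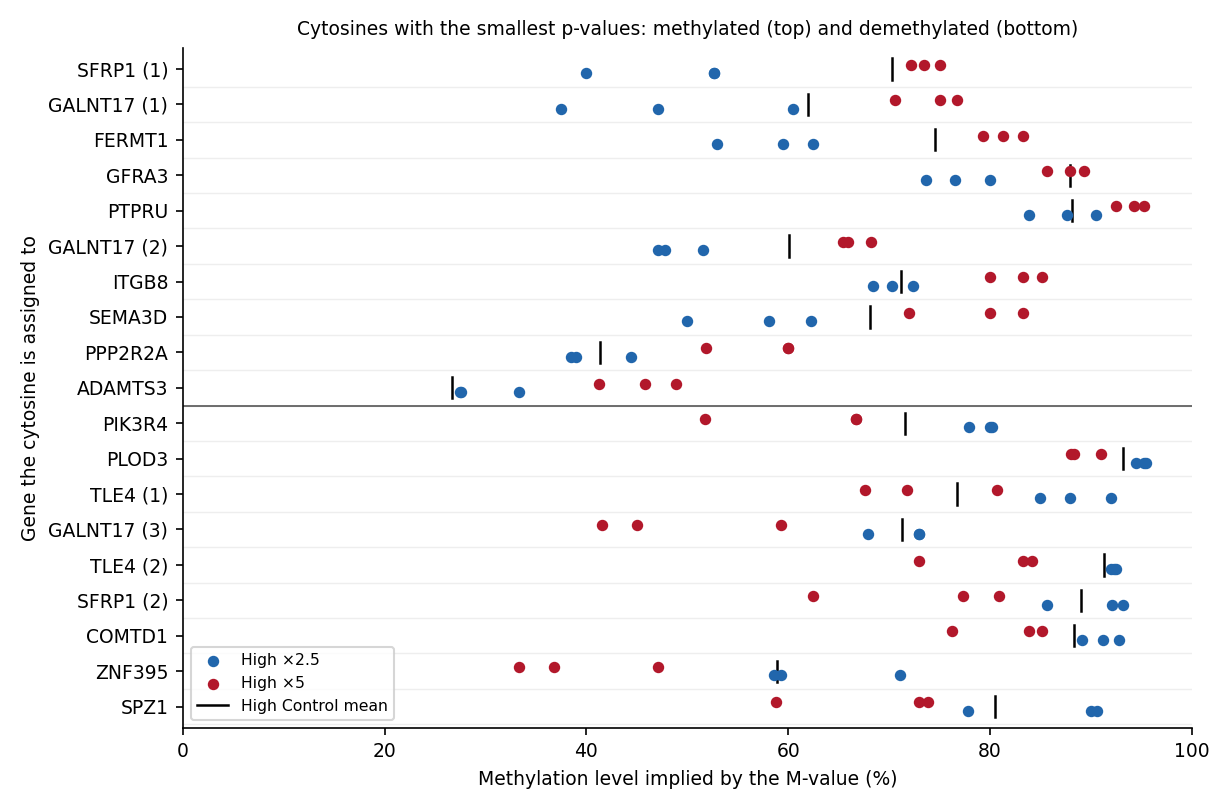
Methylation level in percent of the 10 methylated (top) and 9 demethylated (bottom) cytosines with the smallest p-values, labelled by assigned gene, with 1 point for each High ×2.5 (blue) and High ×5 (red) library and a black line at the mean of the High Control libraries. In each row the red and blue points do not overlap, at SFRP1 (1) for example 72.2% to 75.0% against 40.0% to 52.6%. The choice of cytosines by p-values of these libraries favours such separation.

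Of the other cytosines with the largest differences in points, 3 were lost in some fits and 2 were not. At ACSS3, which encodes a mitochondrial short-chain acyl-CoA synthetase, the gain of 23.2 points at chr5:10907826 rested on High ×2.5 values of 36.0%, 77.8% and 63.0%, and it was called in only 2 of the 6 fits without 1 library, those without High ×5 replicate 1 or High ×2.5 replicate 2. AP4B1, a subunit of a trafficking adaptor, gained 22.8 points at chr3:29606860 and was called in 1 of the 6 fits, the one without High ×2.5 replicate 3. SLC16A7, a monocarboxylate transporter, lost -23.1 points at chr5:53755446 with 60.0%, 79.3% and 84.6% in High ×2.5, and it was not called without High ×2.5 replicate 3. CYB5R3, the cytochrome b5 reductase, lost -23.6 points at chr5:114111379, and GC, the vitamin D binding protein, lost -22.6 points at chr6:88825434. Both of these were called whichever library was left out.

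The called cytosines were also read in High Control, whose libraries took no part in the difference, though they entered the estimate of the spread. The median level of the 143 methylated cytosines was 64.1% in High ×2.5, 72.7% in High Control and 78.4% in High ×5. The median level of the 320 demethylated cytosines was 84.3% in High ×2.5, 80.4% in High Control and 71.3% in High ×5. The Control mean lay between the ×2.5 and ×5 means at 400 of the 463 (86.4%), against 11104 of all 31500 (35.3%), and it was closer to ×2.5 at 271 (58.5%, against 52.2% of all). Since cytosines were called for a wide gap between ×2.5 and ×5, another value falls in that gap more often by construction, and no test was made.

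The same step in low glucose was compared as a test of whether it depends on glucose. The High and Low steps share no library, but their spread was estimated together. Low ×5 against Low ×2.5 gave 117 called cytosines (0.371%), 72 methylated and 45 demethylated. Of these, 5 were among the 463, and 2 of the 5 had the same sign in both steps. At the 463 called in high glucose, the Low step had the same sign at 218 (47.1%), and its median was 0.02 on the log2 scale at the methylated and 0.04 at the demethylated cytosines. The share of equal signs over all cytosines was not computed, so 47.1% has no reference here. The difference between the steps, tested as an interaction, was called at 262 cytosines (0.832%), 74 with a higher and 188 with a lower step in high glucose (113 and 153 with centred, 111 and 155 with scaled and 118 and 153 with quantile normalized libraries), and none passed an adjusted p-value under 0.05 in limma (smallest 0.475, with 1393 at an unadjusted p-value under 0.05). The interaction uses the High libraries that made the 463 calls, and 117 cytosines were called in both.

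Of the cytosines called in both, ADCYAP1 had the smallest interaction p-value. This gene encodes the neuropeptide PACAP, which acts through cyclic AMP. At chr24:36389011 the level was 96.1%, 93.5% and 92.0% in High ×2.5 and 78.8%, 81.5% and 74.5% in High ×5, while the Low treatments went from 88.4% ± 4.12 to 94.6% ± 3.06 (SD). The High step was -2.14 ± 0.48 and the Low step 1.3 ± 0.48 on the log2 scale (SE), and they differed by -3.44 (interaction, adjusted p = 1.0 in limma). At GALNT17, chr25:30307826, the Low means went the other way, from 69.0% ± 3.23 to 60.5% ± 5.51, and the steps differed by 2.16 on the log2 scale. SPCS3, a subunit of the signal peptidase, fell from 77.9% ± 2.45 to 66.7% ± 4.2 in high glucose and had 68.0% ± 5.09 and 79.1% ± 3.18 in low glucose at chr27:6858129. RNF122, a RING-type ubiquitin ligase, fell from 61.7% ± 4.41 to 44.4% ± 3.94 in high glucose and had 44.2% ± 11 and 57.8% ± 1.64 in low glucose at chr27:28881552. At PTPRU the steps differed by 1.61. The High step of SPCS3 and of RNF122 was not called in 3 of 6 fits without 1 library, namely without High ×5 replicates 1 and 2 in both, High ×2.5 replicate 3 at SPCS3 and High ×2.5 replicate 2 at RNF122.

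Because the 2 cytosines of a CpG, 1 on each strand, were deposited as separate values, each CpG measured on both strands holds a second reading of the same site. There were 6206 such CpGs, or 12412 cytosines. The standing level agreed well between the strands, with Pearson's r = 0.94 over 6206 CpGs in the mean of the 12 libraries outside the contrast. The difference between High ×5 and High ×2.5 did not carry over, with r = 0.04 over the same CpGs. In low glucose the r of the same step was 0.02, and for single libraries, as deviations from their treatment mean, it was between -0.01 and 0.07 over the 6 libraries. These correlations describe cytosines that share libraries and are given without a p-value.

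Neighbouring cytosines on the same strand did move together. For different CpGs 2 to 10 bp apart on the same strand, r of the difference was 0.25 (5788 pairs), and at 11 to 30 bp it was 0.12 (11848 pairs). For CpGs equally close but on opposite strands it was -0.01 (5638 pairs) and 0.01 (11795 pairs). From 31 bp on, r was at most 0.01 on either strand. The standing level showed no such split, since at 2 to 10 bp its r was 0.77 on the same and 0.74 on opposite strands. Same-strand neighbours can be read by the same molecules, while the strands are read by different molecules, and the part of shared reads in these correlations was not tested. The deviations of single libraries gave r of 0.25 to 0.3 for same-strand neighbours at 2 to 10 bp, close to the 0.25 of the treatment difference.

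Of the 12412 cytosines on such CpGs, 157 were called (1.26%). The other strand of the same CpG had the same sign in 80 of 157 (51.0%), against 51.6% of all pairs. By direction this was 17 of 52 (32.7%) for methylated and 63 of 105 (60.0%) for demethylated cytosines. The median difference of all cytosines was -0.05 on the log2 scale, and such a shift by itself favours lower values on the other strand. The shares of higher and lower values over all paired cytosines were not computed. The other strand was called in the same direction in 0 of 157 and in the opposite direction in 2. Methylated cytosines had a median gain of 13.1 points and their other strand a median of -0.979 points. Demethylated cytosines had a median loss of -10.8 points and their other strand a median of -0.777 points. When both strands were averaged, 48 of 6206 CpGs were called (0.773%), 9 methylated and 39 demethylated, and none passed an adjusted p-value under 0.05 in limma (296 had an unadjusted p-value under 0.05).

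The named genes show this in detail. Both TLE4 cytosines above lie on the same strand, and their opposite cytosines had differences of -0.32 and -0.16 on the log2 scale against -1.47 and -1.52. At the demethylated SFRP1 cytosine the other strand, at chr27:35839148, was at 91.7%, 86.7% and 89.2% in High ×5 and 86.3%, 87.7% and 89.7% in High ×2.5, and these ranges overlapped. At SEMA3D the other strand was at 68.4%, 73.1% and 72.9% in High ×5 and 68.3%, 82.9% and 66.7% in High ×2.5, with no gain. The second GALNT17 cytosine gained 17.6 points and its other strand had a difference of -1.02 points. The difference of the other strand was closest to that of the called cytosine at PLOD3, with -0.62 against -1.24, and at SPZ1, with -0.54 against -1.6, and was called at neither. For 10 of the 27 cytosines named above the other strand had a value.

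**Figure D3:**
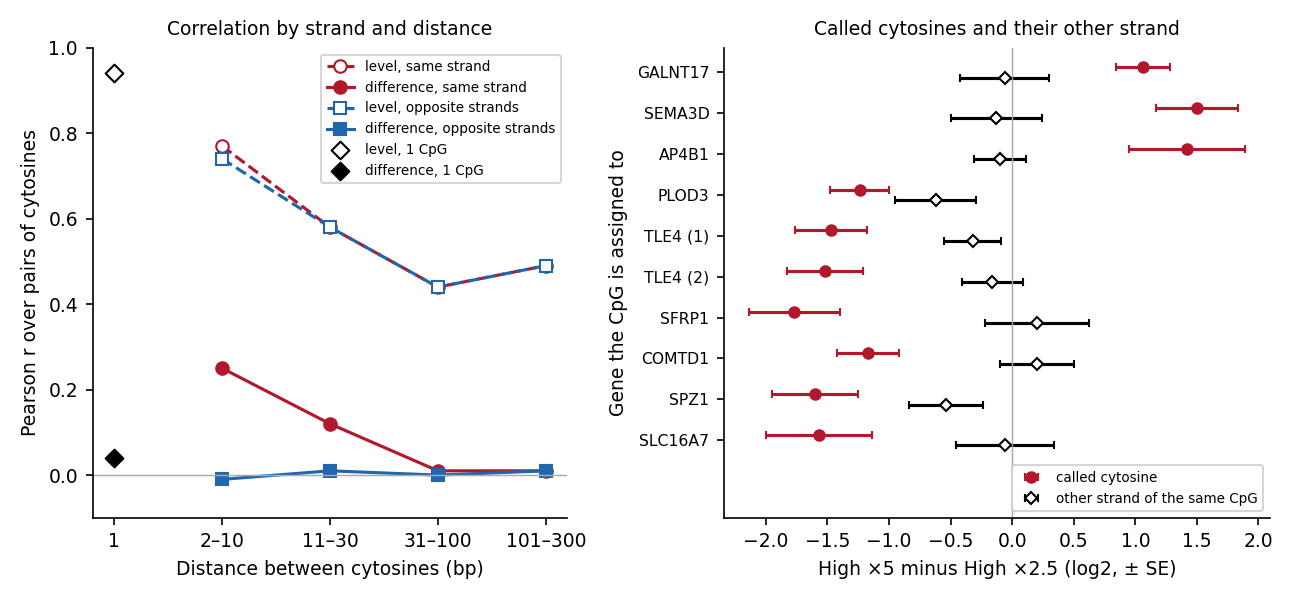
Left, Pearson's r over pairs of cytosines by their distance in bp, for the level in the 12 libraries outside the contrast (open symbols) and for the High ×5 minus High ×2.5 difference (filled), on the same strand (red), on opposite strands (blue) and for both strands of 1 CpG (black). Right, High ×5 minus High ×2.5 on the log2 scale ± SE for the named cytosines (red) and for the other strand of the same CpG (open). The level r of 0.94 between strands stands against 0.04 for the difference, and the open symbols on the right lie between -0.62 and 0.2.

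Averages over neighbouring cytosines reduce the noise of single sites. Of 2663 clusters of at least 3 cytosines with gaps under 100 bp, 21 were called (0.789%), 1 methylated and 20 demethylated, and none passed an adjusted p-value under 0.05 in limma (smallest 0.348, with 154 at an unadjusted p-value under 0.05). The split again moved with scaling, to 14 methylated and 11 demethylated with centred libraries, 13 and 13 with scaled libraries and 13 and 12 after quantile normalization. Without High ×5 replicate 3 there were 44 called clusters, and without High ×2.5 replicate 3 there were 39. Of the 21 called clusters, 17 (81.0%) held no CpG measured on both strands, against 1852 of 2663 (69.5%). Among those 1852, 0.918% were called, and among the other 811, 0.493%. The 1852 clusters had a median of 7 cytosines and a median SE of 0.17 on the log2 scale, against 16 and 0.13 in the 811. The part of cluster size in these shares was not tested.

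A cluster is named by the gene of those of its cytosines that have one. The cluster with the smallest p-value was named by GHITM, a protein of the inner mitochondrial membrane that helps to keep cristae and cytochrome c in place. Its 16 cytosines at chr28:39356738-39357050 averaged 69.4%, 70.1% and 71.1% in High ×5 and 77.3%, 76.1% and 75.7% in High ×2.5. Those beyond chr28:39356936 had no assigned gene. The treatments were well apart, and the difference was -0.56 ± 0.11 on the log2 scale (SE, adjusted p = 0.348 in limma). Of the 16 cytosines 15 were lower at ×5, and 1 was called by itself. The choice of this cluster by p-values of the same libraries favours such separation, and its cytosines are not independent readings. High Control, at 75.6% ± 0.834 (SD), was close to ×2.5. The Low treatments were at 75.5% ± 1.08 (×2.5) and 74.5% ± 1.97 (×5). This cluster was called under all 13 alternatives, among them each of the 6 libraries left out, which its choice by p-value also favours. None of its cytosines had a value on the other strand.

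BRINP1, a gene of the nervous system that restrains the cell cycle, held the next cluster, with 8 cytosines at chr8:110681648-110681754. It averaged 76.1%, 72.0% and 74.4% in High ×5 against 80.6%, 80.3% and 84.0% in High ×2.5 and was also called under all alternatives. TBXT, the mesoderm factor brachyury, held a cluster of 10 cytosines at chr9:102678456-102678683 that fell from 68.5% ± 0.731 to 62.0% ± 3.29, and was not called without High ×5 replicate 3. A cluster of 5 cytosines at RNF122 fell from 91.5% ± 0.986 to 89.2% ± 0.323 and was not called with scaled or quantile normalized libraries, with levels as fractions, with the 6 libraries alone or without High ×2.5 replicate 3. A cluster on chromosome X with no assigned gene, chrX:19099704-19099724, fell from 82.4% ± 1.2 to 77.1% ± 1.25 over 4 cytosines and was not called without High ×5 replicate 3 or High ×2.5 replicate 1.

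The 1 methylated cluster was at ASPH, an aspartate beta-hydroxylase, where 8 cytosines at chr14:29100870-29101145 rose from 51.2% ± 1.92 to 57.6% ± 3.43. Only 3 of the 8 were assigned to ASPH. The cluster was not called without High ×5 replicates 2 or 3 or High ×2.5 replicates 1 or 3, nor with the 6 libraries alone or a replicate block. Next in p-value among higher clusters, and not called, were clusters at LRGUK (48.7% ± 1.16 against 53.7% ± 3.02), CHRNA2 (59.3% ± 2.14 against 65.2% ± 5.9) and MIR2404-2 (73.5% ± 0.928 against 80.0% ± 3.3), and a cluster at chr5:97130826-97130873 (63.7% ± 1.27 against 69.8% ± 1.8), with ×2.5 given first. Only the first cytosine of the CHRNA2 cluster was assigned to that gene.

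Averaged over genes with at least 5 cytosines, 4 of 250 gene means were called (1.6%), all demethylated, and none passed an adjusted p-value under 0.05 in limma (smallest 0.309, with 13 at an unadjusted p-value under 0.05). UBN2, a subunit of the HIRA histone chaperone complex, had the smallest p-value. Its 54 cytosines averaged 33.3%, 31.4% and 32.4% in High ×5 and 34.9%, 38.5% and 37.4% in High ×2.5, a difference of -0.33 ± 0.08 on the log2 scale (SE, adjusted p = 0.309 in limma). POMK, a kinase of the O-mannosyl glycan of dystroglycan, fell from 58.8% ± 2.82 to 51.3% ± 4.18 over 5 cytosines. FUNDC1, a receptor for mitophagy in the outer mitochondrial membrane, fell from 71.5% ± 1.55 to 65.4% ± 0.916 over 10 cytosines. SPZ1 fell from 73.7% ± 2.41 to 69.4% ± 1.91 over 13 cytosines.

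Each of these 4 gene means was lost in some fits. UBN2 was not called without High ×2.5 replicate 2, with centred libraries or with the 6 libraries alone, while without High ×2.5 replicate 1 its adjusted p was 0.0333 in limma. Of the 6 fits without 1 library, POMK and FUNDC1 were called in 2 and SPZ1 in 3. The count was 7 without High ×5 replicate 3, 8 without High ×2.5 replicate 3, 2 without High ×2.5 replicate 2 and 1 without High ×5 replicate 2. In all, 201 of 250 gene means were below 0 and 49 above, but with centred libraries 148 were below and 102 above. The fifth lowest p-value among lower gene means was at TBXT (58.9% ± 0.803 against 57.0% ± 0.772, ×2.5 first), and the higher ones with the smallest p-values were UBE2E2, KCTD1, PLA2G4A, TMEM183A and GYPC, with differences of 0.22 to 0.41 on the log2 scale, none called.

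Of the 463 called cytosines, 418 were assigned to a gene, in 150 of 362 genes. The study's tables list cytosines called in its own comparisons, this one among them, so called cytosines were assigned more often: 1.67% of assigned and 0.691% of unassigned cytosines were called. Shares within genes and lists are to be read with this in view. The genes with the most calls were those with many cytosines. C14H8orf33 held 18 called of 1074 cytosines (1.68%) and ALG6, a glucosyltransferase of N-glycan assembly, 18 of 960 (1.88%), against 1.47% of all. TLE4 held 12 of 688 (1.74%) and CFAP126, a protein of motile cilia, 12 of 612 (1.96%). PAK1, a kinase that acts downstream of Rac and Cdc42 on the cytoskeleton, held 9 of 743 (1.21%).

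In all, 38 genes held 4 or more called cytosines, from 0.83% to 12.5% of their own, and 236 of the 463 calls. In 29 of the 38 most calls were demethylated, in 3 most were methylated (PAK1 with 7 of 9, GNAI1 with 3 of 4 and PPP2R2A with 3 of 4), and in 6 the directions were equal. Of all calls 69.1% were demethylated, and of assigned calls 70.3%, so a lean to this side is common to most genes with several calls. All calls were demethylated at BRINP1 (8 of 415 cytosines, 1.93%), GHITM (6 of 163, 3.68%), UBE3A (6 of 254, 2.36%), INTS10 (4 of 287, 1.39%), PLOD3 (4 of 66, 6.06%) and RGL1 (4 of 38, 10.5%). UBE3A encodes a ubiquitin ligase known from genomic imprinting, INTS10 a subunit of the Integrator complex and RGL1 an exchange factor for Ral. Under other scalings GHITM, PLOD3 and RGL1 had no methylated call in each of 3, but the demethylated calls were fewer at GHITM and PLOD3. With centred, scaled and quantile normalized libraries these were 3, 3 and 2 at GHITM, 2, 2 and 2 at PLOD3 and 3, 4 and 4 at RGL1. BRINP1 had 1 methylated call after quantile normalization, UBE3A 1 with centred libraries and INTS10 1 or 2 in each of 3. No gene mean among the 38 was called.

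Others with 6 or more calls were RNF122 with 8 of 734 cytosines (1.09%), MIR2404-2 with 8 of 318 (2.52%), TWIST1 with 7 of 321 (2.18%), GRIK1 with 7 of 346 (2.02%), TFF3 with 7 of 246 (2.85%), HDAC8 with 6 of 201 (2.99%), PREP with 6 of 271 (2.21%), CPS1 with 6 of 314 (1.91%) and GALNT17 with 6 of 395 (1.52%). For reference, 1.67% of assigned cytosines were called. Demethylated calls outnumbered methylated ones in each of these 9 genes as deposited. After other scalings the directions were equal at TFF3 in each of 3, at HDAC8 with centred libraries, at PREP with centred or quantile normalized libraries, at GALNT17 with scaled libraries and at CPS1 and GRIK1 after quantile normalization. Of the 38 genes with 4 or more calls, C6H4orf19 had the highest share, 4 of 32 cytosines (12.5%).

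**Figure D4:**
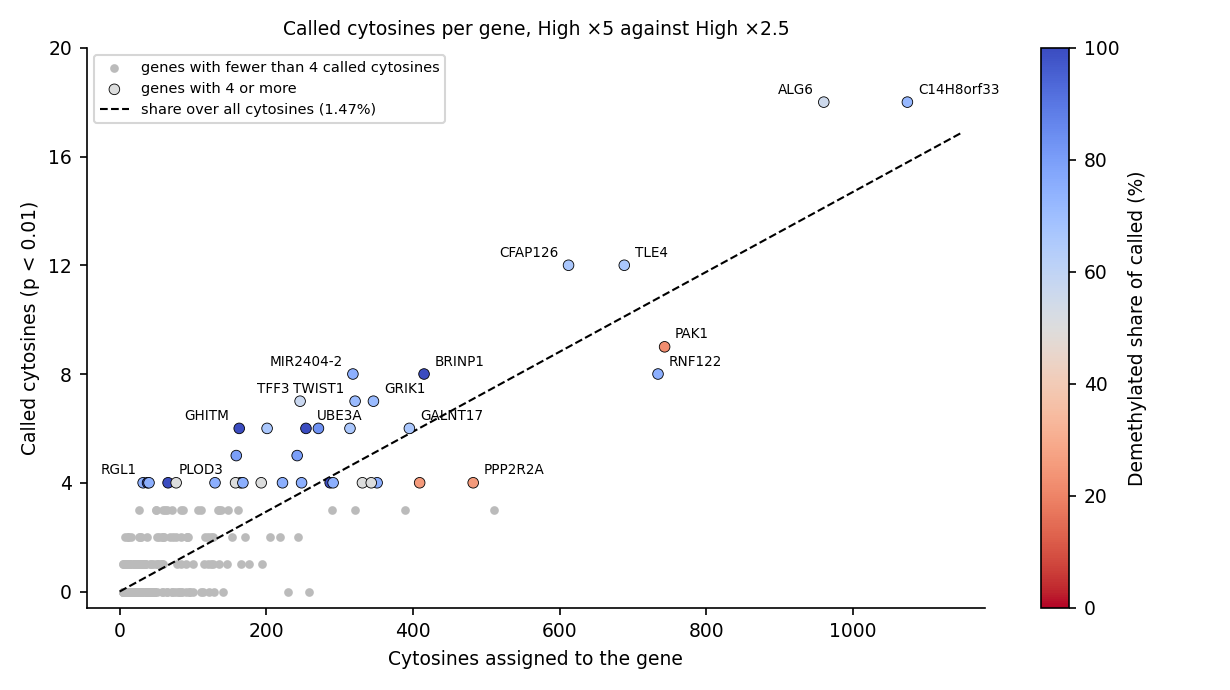
Called cytosines (p under 0.01) against all cytosines assigned to a gene, for genes with at least 5 cytosines, with genes of 4 or more calls coloured by the percentage of demethylated calls. The dashed line is the share over all cytosines, 1.47%, and the genes with the most calls, ALG6 and C14H8orf33 with 18 each, lie close to it.

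By function, lists of genes with measured cytosines were counted, each gene list having been chosen with earlier results of these data known, so that their counts are a description. For reference, 1.47% of all and 1.67% of assigned cytosines were called, and 69.1% and 70.3% of these calls were demethylated. In the mitochondrial list, 30 of 1645 cytosines at 11 genes were called (1.82%, near these shares), 4 methylated and 26 demethylated, in 9 genes, and 20 to 23 of its calls were demethylated and 5 to 7 methylated under the other 3 scalings. SLC25A14, a mitochondrial carrier, had 47.4%, 47.1% and 40.6% in High ×5 against 58.1%, 56.6% and 67.4% in High ×2.5 at chrX:14105670. NDUFB7, a subunit of respiratory complex I, had 69.6%, 59.3% and 72.5% against 89.8%, 84.6% and 85.7% at chr7:12138001. A cytosine of CPS1, the carbamoyl phosphate synthetase of the urea cycle, went the other way, from 67.8% ± 5.76 to 80.1% ± 3.92 at chr2:100643337. Of the 6 called cytosines of CPS1, 2 were methylated and 4 demethylated. The median difference over the list was -0.07 on the log2 scale, against -0.05 over all cytosines.

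Developmental transcription factors had 12 of 506 cytosines called (2.37%, against 1.67% of assigned cytosines), 2 methylated and 10 demethylated, with a median of -0.11 against -0.05 over all cytosines. NFIA, a nuclear factor of glial and muscle development, fell from 95.0% ± 0.446 to 90.0% ± 0.591 at chr3:85604999, and TWIST1, a regulator of mesenchymal cells, from 94.4% ± 2.28 to 88.9% ± 2.52 at chr4:27750719. Chromatin modification genes had 12 of 471 called (2.55%), 3 methylated and 9 demethylated. A cytosine of UBN2 fell from 53.6% ± 4.93 to 34.3% ± 8.06 at chr4:103647706, and a cytosine of HDAC8, a histone deacetylase, rose from 86.0% ± 2.44 to 92.2% ± 1.32 at chrX:83183185. Neurotransmitter receptor and synapse genes had 11 of 513 called (2.14%), 3 methylated and 8 demethylated, but 6 and 6 after quantile normalization. GRIK1, a kainate receptor subunit, fell from 85.4% ± 1.94 to 75.5% ± 5.76 at chr1:5254403, and the synaptic adhesion protein NLGN1 rose from 17.8% ± 7.52 to 31.6% ± 4.77 at chr1:93008098.

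Wnt signalling genes had 20 of 969 called (2.06%), 6 methylated and 14 demethylated, at SFRP1, TLE4, TLE1 and ZNRF2. ZNRF2, a ubiquitin ligase of the membrane, fell from 74.5% ± 3.1 to 64.2% ± 2.47 at chr4:66533572. Ubiquitin transfer genes had 18 of 1141 called (1.58%), 4 methylated and 14 demethylated, and UBE3A fell from 91.3% ± 1.28 to 83.7% ± 1.81 at chr21:2093168. In these 2 lists, as in the mitochondrial, transcription factor and chromatin lists, demethylated calls were the larger group in each of the 3 other scalings.

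In 4 other lists the direction depended on scaling. G protein-coupled receptor signalling genes had 19 of 1186 called (1.6%), 5 methylated and 14 demethylated, but 10 and 10 with centred libraries and 11 and 10 with scaled or quantile normalized ones. VIPR2, a receptor of the PACAP family, fell from 93.5% ± 1.57 to 86.6% ± 1.69 at chr4:120644728. Cell adhesion and extracellular matrix genes had 18 of 1243 called (1.45%), 5 methylated and 13 demethylated, but 10 and 9 with centred libraries. CDH8, a cadherin, fell from 84.8% ± 5.84 to 68.3% ± 7.51 at chr18:30854322, beside the values of FERMT1, ITGB8 and PLOD3 above. MAP kinase and growth factor genes had 14 of 1128 called (1.24%), 7 in each direction, but 11 methylated and 5 demethylated with centred libraries. MET, the receptor of hepatocyte growth factor, fell from 65.5% ± 4.76 to 50.7% ± 4.03 at chr4:51992655, and PAK1 rose from 55.9% ± 6.63 to 69.9% ± 3.23 at chr29:19443806. Immune signalling genes had 11 of 1053 called (1.04%), 5 methylated and 6 demethylated, but 9 and 5 with centred libraries. The chemokine XCL1 fell from 92.6% ± 1.75 to 83.6% ± 4.96 at chr16:36586880 and the surface glycoprotein CD200 rose from 82.5% ± 2.74 to 90.3% ± 0.893 at chr1:57477802. None of 10 genes of one-carbon metabolism and DNA methylation had an assigned cytosine, and whether unassigned cytosines lie near them was not examined.

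Single genes that other comparisons of the study bring up gave the following. ADCYAP1 had 2 of 93 cytosines called (2.15%, against 1.67% of assigned cytosines), both demethylated, and its mean was 67.8% ± 0.78 in High ×5 and 69.3% ± 0.795 in High ×2.5. SFRP1 had 4 of 130 called (3.08%), 1 methylated and 3 demethylated, IL2, a T cell growth factor, had 4 of 331, 2 in each direction, and ACBD6, an acyl-CoA binding protein, 4 of 165, 2 in each direction. ARRDC3, an arrestin-like adaptor, had 1 of 127 (0.787%) and ITGB8 2 of 205 (0.976%), all methylated. Whether these shares differ from that over all cytosines was not tested. MAP2K6 (71 cytosines), PLCB1 (58), CERS6 (28) and LRGUK (230) had no called cytosine. The largest region of chromosome 3, chr3:82708009-82911078, held 988 cytosines, of which 18 were called (1.82%), 8 methylated and 10 demethylated.

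Calls were found at all standing levels. Cytosines were divided by their mean M-value in the 12 libraries outside the contrast. At 5296 highly methylated cytosines (M above 3) 15 were methylated and 64 demethylated at ×5, and at 14999 cytosines with M of 1 to 3 there were 71 and 155. At 8633 cytosines near a level of 50% (M of -1 to 1) there were 46 and 81, at 2123 with M of -3 to -1 there were 9 and 18, and at 449 with M of -3 or lower 2 and 2. The shares called were 1.49%, 1.51%, 1.47%, 1.27% and 0.891% in this order. The mean M-value of the class above 3 was 3.38, 3.21 and 3.49 in High ×5 and 3.64, 3.46 and 3.28 in High ×2.5, which overlap, and the class differences, from -0.1 in this class to 0.04 in the lowest, all had exact two-sided permutation p-values of 0.5 to 0.8 (Benjamini-Hochberg adjusted over 5 classes, 0.8). The difference of the class above 3 was -0.00708 without High ×2.5 replicate 1, -0.0233 without High ×5 replicate 2, -0.162 without High ×5 replicate 3 and -0.187 without High ×2.5 replicate 3. The surplus of demethylated calls among highly methylated cytosines was smaller with scaled libraries, 36 methylated and 63 demethylated.

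**Figure D5:**
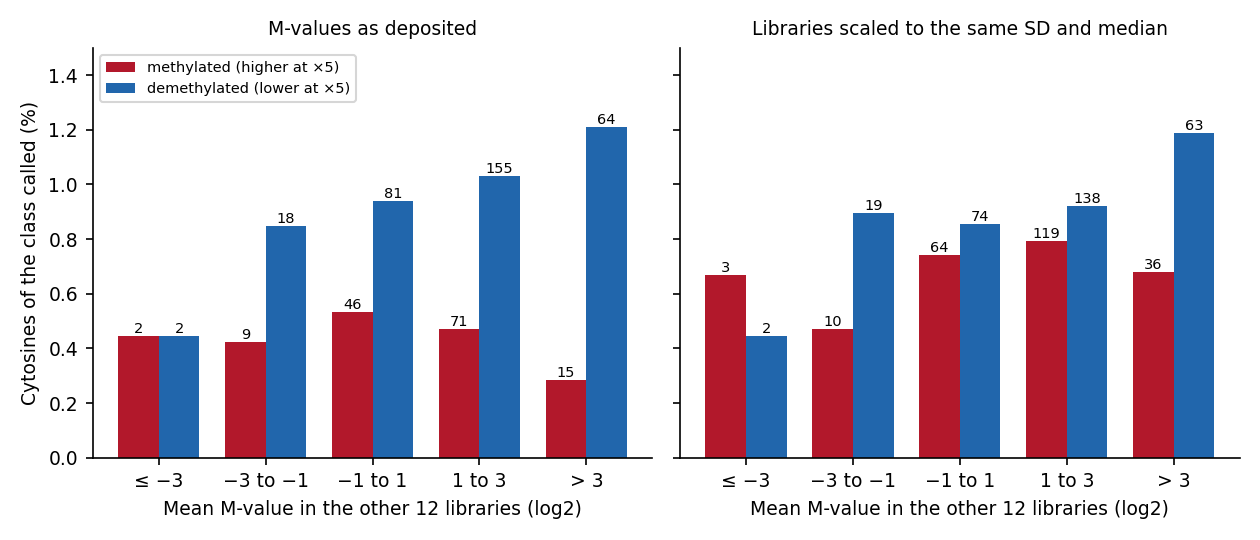
Percentage of cytosines called methylated (red) and demethylated (blue) at High ×5 against High ×2.5, by class of the mean M-value in the 12 other libraries, with the M-values as deposited (left) and with libraries scaled to the same SD and median (right). Numbers above the bars are called cytosines, for the highest class 15 and 64 on the left and 36 and 63 on the right.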

How the data were processed

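DNA from frozen EBTr pellets was analysed by RRBS in 18 libraries, 3 for each of 6 treatments. Groups and replicate numbers were taken from the labels. Reads were trimmed by the authors (Cutadapt) and aligned to bosTau8 with Bismark 0.22.3 (methylseq). CpG cytosines of very low or very high coverage were removed. The authors deposited log2 values, 1 M-value per cytosine and library for 31500 cytosines. The offset is not given in the sources used here. Depth per value is unknown, so no counting error was computed, and 3 libraries per treatment limit the precision.

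Two-sided moderated tests were run on these values in limma 3.58.1 under R 4.3.3. A single model held a mean for each treatment and all 18 libraries. Residual degrees of freedom were 12. The study's threshold, p under 0.01 without adjustment, defined a call. Levels of libraries were compared with exact permutation tests. Cytosines at neighbouring positions were taken as the 2 strands of a CpG, the lower position being the forward strand (12 positions in runs of 3 were left out), and strand was known only for these. Cytosines were assigned to genes where the study's table of closest start sites lists them or where they lie between 2 cytosines listed for the same gene (24983 of 31500, 362 genes), and 3 symbols listed on several chromosomes were left unassigned. The steps were checked on simulated data. Alternatives were other variance models, the 6 libraries alone, a replicate block, 3 scalings, levels as fractions, filters and each of the 6 libraries left out. Averaging of the strands was added after seeing the data. The genes, lists and rules for naming (the 10 smallest p-values in each direction, the 5 largest differences, the 5 leading clusters, gene means and interaction sites, genes with 4 or more calls, and list members with the smallest p-values) were chosen with earlier results of these data known. Python 3.11.15, numpy 2.4.6, pandas 2.3.3, scipy 1.17.1 and matplotlib 3.10.9 were used. A named cytosine and its gene are not reported here, and the gene was left out of its list. No sequences are shown, since no genome of this build was used here. Growth, respiration and expression measurements of the study were not analysed here.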

Additional observations from a re-analysis of the deposited data

Results flagged for a closer look

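In 24 named results the step from ×2.5 to ×5 differed between High and Low glucose at an interaction p-value under 0.01 in limma, which was called at 0.832% of all cytosines. They were 20 of the 27 named cytosines, 3 clusters and 1 gene mean. All were named for their High step or for this interaction, and the High libraries enter both tests, so this count does not stand for a share of the genome. No cytosine passed an adjusted p-value under 0.05 for the interaction. In 17 of the 20 cytosines the Low step had the opposite sign to the High step, which their calls in both tests favour. Some of these Low steps were smaller than their SE, such as -0.04 ± 0.31 at FERMT1 and 0.1 ± 0.24 at PLOD3 (log2 scale). Others were larger, such as 1.3 ± 0.48 at ADCYAP1.

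The High step was above the Low step, on the log2 scale, by 2.16 at GALNT17 (chr25:30307826), 1.67 at FERMT1, 1.61 at PTPRU, 1.35 at ITGB8, 1.33 at SFRP1 (chr27:35853033), 1.33 at GFRA3, 1.27 at ADAMTS3, 1.21 at PPP2R2A and 1.18 at GALNT17 (chr25:30337639). It was below the Low step, with negative differences, of -3.44 at ADCYAP1, -2.19 at SFRP1 (chr27:35839147), -1.93 at SLC16A7, -1.82 at RNF122, -1.69 at ZNF395, -1.64 at SPCS3, -1.63 at TLE4 (chr8:56727532), -1.54 at GC, -1.35 at PLOD3, -1.13 at PIK3R4 and -1.13 at COMTD1. Among averages, the difference was -0.86 for the cluster at BRINP1, -0.48 for the cluster at GHITM, 0.61 for the cluster at ASPH and -0.9 for the gene mean of POMK. At TLE4, SFRP1 (chr27:35839147), COMTD1 and SLC16A7 the other strand of the same CpG had a High step of -0.16, 0.2, 0.2 and -0.06. At GALNT17 (chr25:30337639) it was -0.06 and at PLOD3 -0.62, the latter in the direction of the called cytosine.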

How the results depend on the processing

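The count of 463 called cytosines moved by more than 1.5 times in 4 alternatives. It was 255 with the 6 libraries fitted alone, 306 with a difference of at least 10 points, 0 at an adjusted p-value under 0.05 and, with only CpGs of both strands averaged, 48. Called clusters ranged from 18 to 44 and called gene means from 1 to 8 when 1 library was left out, and centring left 2 gene means. The interaction count lay between 245 and 350 in all its alternatives. The methylated share of 30.9% was 45.7% centred, 43.9% scaled, 46.9% quantile normalized and 19.7% to 46.2% with 1 library left out. The replicate numbers did not pair the samples (correlations of same-numbered deviations of -0.02, -0.01 and -0.07), and with a replicate block 464 cytosines were called, 35.6% of them methylated. The class differences at M up to 1 changed sign. For M of -3 or lower (0.0375) the value was -0.0177 after quantile normalization and -0.125 to 0.205 without 1 library. For -3 to -1 (-0.0116) it was 0.0364 centred, 0.00982 quantile normalized and -0.0352 to 0.0311 without 1 library. For -1 to 1 (-0.0236) it was 0.0244, 0.00209 and 0.00862 centred, scaled and quantile normalized. For 1 to 3 (-0.0619) and above 3 (-0.0976) it stayed below 0, from -0.112 to -0.00696 and from -0.187 to -0.00708 without 1 library. Of the named calls, 22 of 27 cytosines, 2 of 6 clusters and 0 of 4 gene means were called in every alternative, and none changed sign. Most were chosen by p-values of the same libraries, which favours such stability. The causes were not tested. Read depth was not known, so it could not be weighed.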

Other observations

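Of the 463 called cytosines, 85 (18.4%) had another called cytosine within 100 bp, against 14.1% of those not called. The 85 formed 48 pairs, of which 35 had the same and 13 the opposite direction. No reference for this count was computed. Of all calls 69.1% were demethylated, which by itself favours equal directions, and close cytosines on the same strand can share reads.

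Among the gene means, the Low step gave 2 called genes of 250, both methylated, with no adjusted p-value under 0.05 in limma, while the High step gave 4, all demethylated. Over all cytosines the median step was -0.05 on the log2 scale in high glucose and 0.0 in low glucose.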
